A study of Homo sapiens with 18 samples.

Results

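The transcripts of 10 cell surface proteins were followed in the myeloma lines MM1R and MM1S during exposure to RSL3, an inhibitor of the lipid peroxide-reducing enzyme GPX4. They are 6 antigens that myeloma immunotherapies are built on (CD38, SDC1, TNFRSF17, SLAMF7, GPRC5D and FCRL5), the 3 membrane regulators of complement CD55, CD59 and CD46, and CD47, the signal that holds back macrophages. The 10 genes were picked by symbol from the 43735 genes of the count table, as known antigens and regulators, with earlier results of these data known. All 10 passed the filter on low counts, as did 14281 genes in total. Averaged over the lines, CD55 rose by 2.98 with RSL3 on the log2 scale and CD38 by 0.54, while SDC1 fell by 0.45 and TNFRSF17 by 0.53. CD59, CD46 and CD47 differed by at most 0.10 in either line and were not called.

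A plasma cell carries a set of surface proteins that persists in myeloma and that antibodies, bispecific antibodies and engineered T cells bind. Antibodies of the right class also start the complement cascade on the cell. The membrane regulators restrain it at different steps, since CD55 takes apart the C3 convertases, CD46 is a cofactor for the cleavage of C3b and C4b, and CD59 blocks the assembly of the membrane attack complex. CD55 and CD59 are held in the membrane by a glycosylphosphatidylinositol (GPI) anchor, and CD46 and CD47 span it.

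MM1S is a human multiple myeloma line that glucocorticoids kill, and MM1R is a glucocorticoid-resistant line of the same origin. Each line was left untreated, given 5 µM RSL3 for 3 h, or given 2 µM ferrostatin-1 (Fer-1, an inhibitor of lipid peroxidation) for 2 h and then the same RSL3 exposure, and each of these 6 groups held 3 libraries of total RNA. The labels name no vehicle, and no group received Fer-1 alone, so an effect of Fer-1 by itself cannot be told apart from its effect on the RSL3 response. The replicates were passages 4, 6 and 7 of MM1R and 16, 22 and 23 of MM1S, and each passage gave 1 library of every treatment. All libraries of a line are passages of that 1 cell line, so p-values rest on the spread between passages. That spread was estimated over the 6 groups of both lines together, so libraries of 1 line can change a call in the other. The labels do not say whether the passages of a line came from 1 culture. In bulk RNA, fewer cells that express a gene and less of its RNA per cell cannot be told apart.

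Libraries held 17635438 to 19368343 counts. Levels are given as CPM (counts scaled to a common library total) after TMM scaling, and the mean of a group is followed by its SD (n = 3). Among the MM1R libraries, 1 stood apart from its label. Replicate 2 of Fer-1 + RSL3 in MM1R, called the mixed library from here on, had 50.2 CPM of the glucocorticoid receptor gene NR3C1, where the other MM1R libraries had 13.8 to 22.3 and the MM1S libraries at least 89.9. Over 10 genes that were over 8-fold higher in MM1S, its median level was 48.5% of the MM1S level, and no other library passed 6.85% of the level of the other line by the same measure over 5 to 25 genes. Calls that rest on this library are also given without it.

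The identity of the cells was checked on marker genes. All 10 plasma cell markers were expressed, with a summed level of 9101 to 18310 CPM. The markers SDC1, TNFRSF17 and CD38 are also members. JCHAIN was the highest marker, with 4808 to 12660 CPM, and DERL3 the lowest, with 4.47 to 13.6 CPM. The B cell list summed to at most 1.57 CPM and its marker MS4A1 never passed 1 count, CD3G and NKG7 were at 0 in all 18 libraries, and no monocyte or macrophage marker passed 7 counts. The T cell list was not empty, since TRAT1 had 20.5 to 50.1 CPM and CD3E 3.26 to 11.5 CPM, and natural killer markers summed to at most 2.30 CPM. The stromal list summed to at most 3.93 CPM in all but 1 library. That library, MM1S RSL3 replicate 1, reached 19.7 CPM, of which COL1A1 gave 19.5.

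Per kilobase of annotated exon, the antigens covered a wide range of levels in untreated cells. TNFRSF17, which encodes BCMA, a receptor for plasma cell survival signals, was the highest, with 426 ± 48.6 CPM per kb in MM1R and 346 ± 25.9 in MM1S. SDC1 (syndecan-1 or CD138, a heparan sulfate proteoglycan) followed with 236 ± 22.4 and 185 ± 6.05. GPRC5D, an orphan receptor of plasma cells and hair follicles, and SLAMF7, an adhesion receptor of plasma cells and natural killer cells, came next, and their order differed between the lines. GPRC5D had 201 ± 41.3 CPM per kb and SLAMF7 165 ± 12.7 in MM1R, against 122 ± 41.6 and 162 ± 8.73 in MM1S, and in both lines these 2 genes did not differ beyond their spread.

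The remaining members were lower. CD59 had 49.1 ± 1.94 CPM per kb in MM1R and 57.9 ± 5.93 in MM1S. CD46 and CD47 lay between 17.5 and 24.2 as group means, and in MM1S they did not differ beyond their spread. CD38, an ectoenzyme that consumes NAD, had 6.46 ± 0.644 in MM1R and 13.4 ± 4.85 in MM1S, and CD55 had 1.70 ± 0.103 and 2.90 ± 0.432. FCRL5, an Fc receptor-like protein, was nearly silent, with 7 to 25 counts in each library (0.351 to 1.26 CPM), and no change of it was detectable at this depth. The length used is the union of all annotated exons, which understates genes with a long union such as CD46, FCRL5, CD59 and CD55. The order of the genes depends on this division. In CPM, CD59 was above TNFRSF17 in untreated cells, with 518 against 433 in MM1R and 611 against 352 in MM1S.

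CD55 (hg19 chr1:207494864-207560149) showed the widest change of the 10 genes. In MM1R, untreated libraries had 18.7, 16.6 and 17.1 CPM and RSL3 libraries 169, 43.9 and 161 CPM at passages 4, 6 and 7. In MM1S, untreated libraries had 24.7, 32.7 and 32.0 CPM and RSL3 libraries 663, 63.4 and 50.5 CPM at passages 16, 22 and 23. Every RSL3 library was above every untreated library of its line. Within the RSL3 groups 1 passage stood apart from the other 2 in each line, low at passage 6 of MM1R and far above at passage 16 of MM1S.

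**Figure D1:**
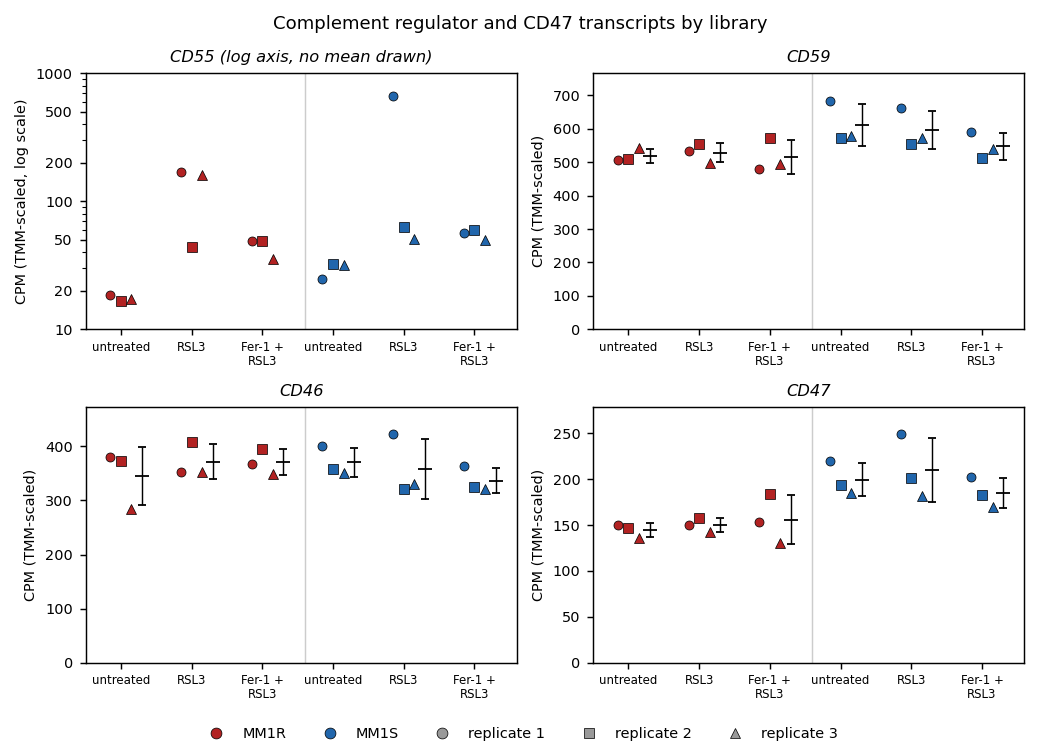
CPM of CD55, CD59, CD46 and CD47 in each of the 18 libraries, by line and treatment, with the mean and SD of 3 libraries beside the points except for CD55, whose axis is logarithmic. CD55 lies at 43.9 to 663 CPM in the RSL3 libraries and at 16.6 to 32.7 CPM in the untreated ones, while the other 3 genes stay level across treatments.

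The fitted log2 fold change of CD55 with RSL3 was 2.83 in MM1R (SE 0.73, FDR = 0.0416) and 3.12 in MM1S (SE 0.73, FDR = 0.0256), where FDR stands for the p of the edgeR quasi-likelihood test after Benjamini-Hochberg adjustment over all genes tested. It was the 1 member of 10 called (FDR under 0.05) in each line, beside 3.36% of all genes tested in MM1R and 3.67% in MM1S. The RSL3 and untreated libraries did not overlap for 4 members in MM1R (CD55, CD38, SDC1 and TNFRSF17), beside 25.7% of genes tested, and for 3 in MM1S (CD55, SDC1 and TNFRSF17), beside 24.9%. The intervals (95%) were wide, 1.25 to 4.42 in MM1R and 1.53 to 4.70 in MM1S. Averaged over the lines, CD55 rose by 2.98 (SE 0.51, FDR = 0.00122), with an interval of 1.86 to 4.10. No difference between the lines in this response was called (-0.29, interval -2.39 to 1.81, FDR = 1), and its direction was not settled, since it was 0.38 with the passage as a block and 1.90 without MM1S RSL3 replicate 1.

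Single libraries carried much of these estimates. Without MM1S RSL3 replicate 1, the log2 fold change of CD55 in MM1S was 0.94 (FDR = 0.255) and the averaged one 1.89 (FDR = 0.000125). This library had the lowest total count and the lowest TMM factor (0.864), and its COL1A1 level and its NR3C1 level (392 CPM) were the highest of all libraries. Their part in the CD55 value was not tested. The MM1S call was also lost without any 1 of the 3 untreated MM1S libraries. The MM1R call was lost without any 1 MM1R library other than RSL3 replicate 2, or without MM1S untreated or Fer-1 + RSL3 replicate 2 or 3, with FDR between 0.000182 and 0.145 over all 18 such fits. With the passage as a block, CD55 was called in MM1R (2.73, FDR = 0.0226) and averaged over the lines (2.54, FDR = 0.00277), and the MM1S value of 2.35 had an FDR of 0.0509. The fit with the block called 13.1% of genes tested in MM1R and 30.4% averaged over the lines. DESeq2 gave CD55 log2 fold changes of 2.83 in MM1R and 3.11 in MM1S (SE 0.75 in both) but withheld its p-value in every comparison. CD55 could therefore not be called by DESeq2. Its raw counts in the MM1S RSL3 libraries were uneven, at 10082, 1191 and 946, and their part in the missing p-value was not tested.

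CD55 varied with the breadth of the response to RSL3 in each passage. Compared within passages, its log2 ratio of RSL3 to untreated was 3.18, 1.40 and 3.23 at passages 4, 6 and 7 of MM1R and 4.75, 0.96 and 0.66 at passages 16, 22 and 23 of MM1S. The share of genes tested that differed over 2-fold within the same pairs of libraries was 10.3%, 6%, 9.45%, 16.4%, 5.81% and 5.58%, in the same order. The 3 passages with the widest responses were those with the steepest CD55 rise. CD55 was then among the 91 genes with the largest rise of all genes tested. It stood at rank 261 at passage 6 of MM1R and at ranks 645 and 961 at passages 22 and 23 of MM1S. The ratio and the share come from the same libraries, so they are not independent.

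**Figure D2:**
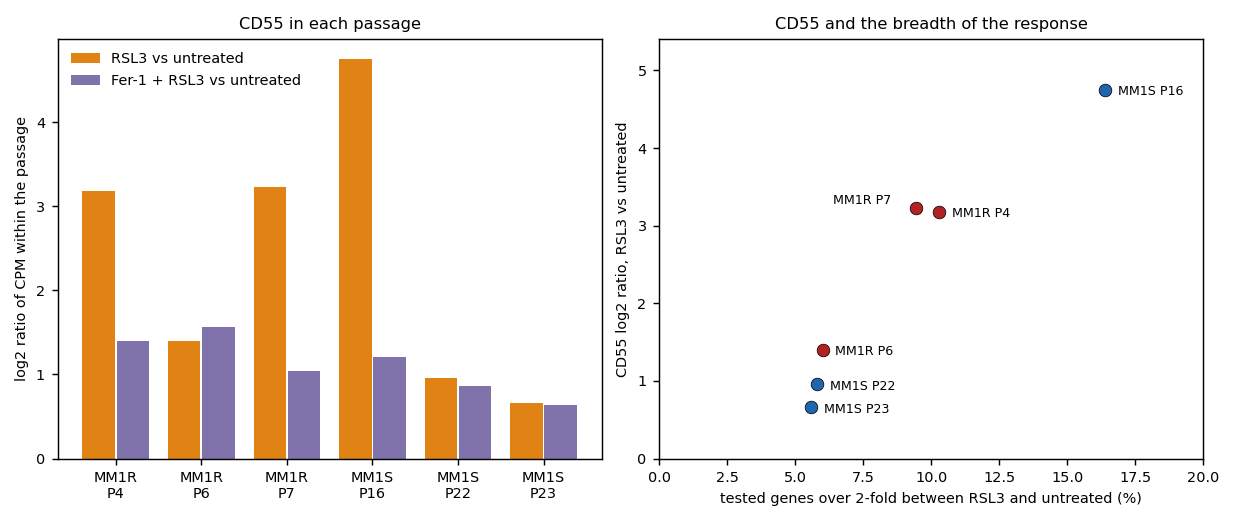
Left, log2 ratio of CD55 CPM to the untreated library of the same passage, with RSL3 and with Fer-1 + RSL3, for the 6 passages. Right, the CD55 ratio against the percentage of genes tested that differed over 2-fold between RSL3 and untreated in that passage, from 0.66 at 5.58% to 4.75 at 16.4%.

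With Fer-1 before RSL3, CD55 lay in a narrow range. The libraries had 49.1, 49.3 and 35.4 CPM in MM1R and 56.9, 59.2 and 49.9 CPM in MM1S, above every untreated library of the same line and overlapping the RSL3 libraries in both. The rise in CPM over the untreated library was compared between Fer-1 + RSL3 and RSL3 alone. With Fer-1 it was smaller by 79.7%, 87.3% and 94.9% at passages 4 and 7 of MM1R and 16 of MM1S. At passages 22 and 23 of MM1S it was smaller by 13.8% and 3.05%, and at passage 6 of MM1R the level with Fer-1 was higher than without. The RSL3 level enters both parts of this percentage, so with a narrow range under Fer-1 a high RSL3 level by itself gives a large percentage. The Fer-1 + RSL3 library of passage 6 is the mixed library, and CD55 was higher in untreated MM1S (29.8 ± 4.43 CPM) than in untreated MM1R (17.5 ± 1.06 CPM). The part of the mixing in this value was not tested. The residual log2 ratio to untreated was 0.64 to 1.57 over the 6 passages, and 0.64 to 1.40 over the 5 without passage 6.

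No difference between Fer-1 + RSL3 and RSL3 alone was called for CD55. It was -1.48 in MM1R (SE 0.69, FDR = 0.804), -2.22 in MM1S (SE 0.70, FDR = 0.783) and -1.85 averaged (SE 0.49, unadjusted p = 0.00153, FDR = 0.13) by edgeR's quasi-likelihood test, lower in 5 of 6 passages. None of the 10 members was called in this comparison in either line, where 0% of all genes tested were called, or averaged, where 0.119% were. At an unadjusted p under 0.05, 1 member passed in MM1R (CD55) beside 6.17% of genes tested, 2 in MM1S (CD55 and SLAMF7) beside 5.75%, and 1 averaged (CD55) beside 12.8%. No member had groups without overlap in MM1R (13.4% of genes tested had). DESeq2 called no member either and gave no p-value for CD55. Without MM1S RSL3 replicate 1 the MM1S value of CD55 was -0.04, so that nearly all of it rested on that library, and the averaged value was -0.77 (FDR = 0.244). The averaged value was -1.89 (FDR = 0.228) without the mixed library, and it passed the threshold without MM1S RSL3 replicate 2 or 3 (lowest FDR = 0.0254).

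CD38 (hg19 chr4:15779898-15854855) rose with RSL3 to a smaller extent. In MM1R, untreated libraries had 42.5, 49.3 and 41.0 CPM, RSL3 libraries 72.2, 80.7 and 62.5, and Fer-1 + RSL3 libraries 97.7, 102 and 65.2. In MM1S the levels were 54.3, 105 and 117 CPM untreated, 93.0, 130 and 139 with RSL3, and 102, 139 and 143 with Fer-1 + RSL3. The MM1R groups did not overlap between treated and untreated cells, whereas in MM1S passage 16 was low under every treatment and the groups overlapped.

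Averaged over the lines, CD38 rose by 0.54 with RSL3 (SE 0.17, FDR = 0.0408 by edgeR's quasi-likelihood test), and it was 1 of 4 members called, with CD55, SDC1 and TNFRSF17, beside 15.5% of all genes tested. The values in each line were 0.70 in MM1R (SE 0.24, FDR = 0.131) and 0.39 in MM1S (SE 0.24, FDR = 0.399), where it ranged from 0.12 without untreated replicate 1 to 0.60 without untreated replicate 3. With the passage as a block, both passed, at 0.69 (FDR = 0.00383) and 0.43 (FDR = 0.0305), with 5 members called in MM1R beside 13.1% of genes tested and 4 in MM1S beside 13.3%. CD38 and CD55 were higher in all 6 passages, as were 13.8% of genes tested. The averaged call without the block was lost in 10 of 18 fits that left out 1 library (any untreated MM1R library, MM1R RSL3 replicate 1 or 2, MM1S untreated replicate 1 or 2, MM1S RSL3 replicate 2 or 3, or MM1S Fer-1 + RSL3 replicate 2), with a highest FDR of 0.081.

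SDC1 (hg19 chr2:20400558-20425194) moved the other way. In MM1R it had 765, 869 and 925 CPM untreated, 554, 700 and 608 with RSL3, and 518, 573 and 526 with Fer-1 + RSL3. In MM1S it had 644, 682 and 682 CPM untreated, 371, 535 and 578 with RSL3, and 376, 525 and 477 with Fer-1 + RSL3. All treated libraries of a line lay below all its untreated libraries. Averaged over the lines, SDC1 fell by 0.45 on the log2 scale (SE 0.11, FDR = 0.0113 by edgeR's quasi-likelihood test), a call kept without any 1 library. The values in each line were -0.46 in MM1R (FDR = 0.112) and -0.44 in MM1S (FDR = 0.126), and with the passage as a block -0.46 in both (FDR = 0.0119 and 0.0136).

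TNFRSF17 (hg19 chr16:12059067-12061925) followed the same course. In MM1R it had 475, 444 and 379 CPM untreated, 316, 345 and 219 with RSL3, and 282, 305 and 197 with Fer-1 + RSL3. In MM1S it had 330, 381 and 344 CPM untreated, 219, 276 and 253 with RSL3, and 151, 234 and 204 with Fer-1 + RSL3. No treated library overlapped the untreated libraries of its line. Averaged over the lines it fell by 0.53 with RSL3 (SE 0.14, FDR = 0.0155 by edgeR's quasi-likelihood test), also without any 1 library. In MM1R the value was -0.56 (FDR = 0.122) and in MM1S -0.50 (FDR = 0.164), and with the block -0.58 (FDR = 0.00285) and -0.50 (FDR = 0.00709).

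**Figure D3:**
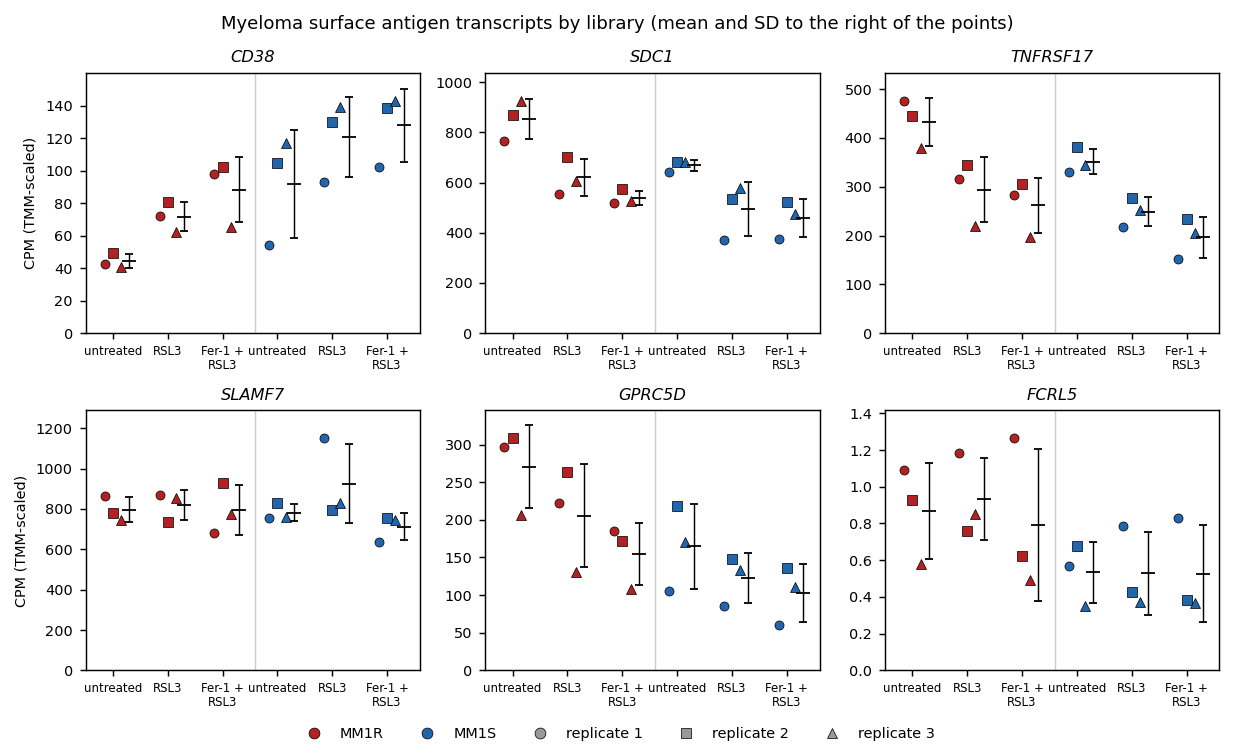
CPM of the 6 surface antigens in each of the 18 libraries, by line and treatment, with the mean and SD of 3 libraries beside the points. CD38 is higher and SDC1, TNFRSF17 and GPRC5D are lower in treated than in untreated libraries of the same replicate, SLAMF7 shows no shared direction, and FCRL5 stays at or under 1.26 CPM.

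GPRC5D (hg19 chr12:13093509-13105104) differed between passages as well as between treatments. In MM1R it had 297, 308 and 207 CPM untreated, 222, 264 and 131 with RSL3, and 185, 172 and 108 with Fer-1 + RSL3. In MM1S it had 106, 218 and 170 CPM untreated, 84.9, 148 and 134 with RSL3, and 60.4, 136 and 111 with Fer-1 + RSL3. The RSL3 and untreated groups overlapped in both lines, with passage 7 of MM1R and passage 16 of MM1S low throughout, but within every passage the RSL3 library was below the untreated one. The values without the block were -0.40 in MM1R (FDR = 0.581), -0.43 in MM1S (FDR = 0.518) and -0.41 averaged (FDR = 0.252) by edgeR's quasi-likelihood test, and with the passage as a block they were -0.43 (FDR = 0.0116), -0.41 (FDR = 0.0168) and -0.42 (FDR = 0.000735). The fit with the block called 13.1%, 13.3% and 30.4% of genes tested in MM1R, in MM1S and averaged. GPRC5D, SDC1 and TNFRSF17 were the members lower with RSL3 in all 6 passages, as were 14.8% of genes tested.

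**Figure D4:**
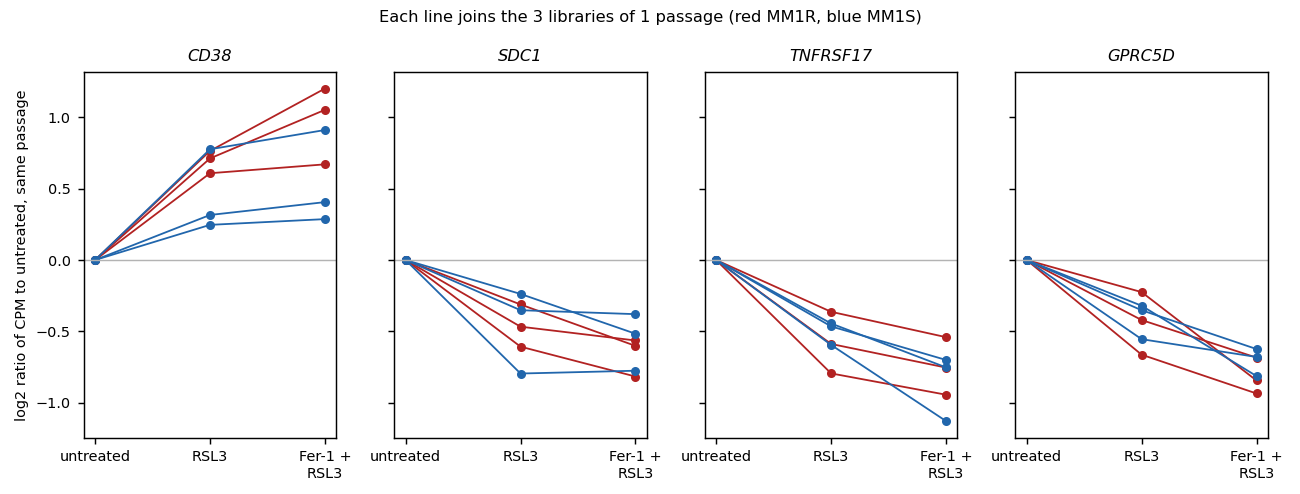
Log2 ratio of CPM to the untreated library of the same passage for CD38, SDC1, TNFRSF17 and GPRC5D, with each line joining the 3 libraries of 1 passage. The RSL3 ratios lie between 0.25 and 0.78 for CD38 and between -0.79 and -0.22 for the other 3 genes, and the lines of TNFRSF17 and GPRC5D fall further with Fer-1 + RSL3 in all 6 passages.

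These 4 antigens were, on average over the lines, no closer to untreated cells with Fer-1 than without it, and no difference was called without the block. Against RSL3 alone, the Fer-1 + RSL3 library was higher for CD38 in all 6 passages (8% of genes tested) and lower for TNFRSF17 and GPRC5D in all 6 (6.59%). For SDC1 it was lower except at passage 16 of MM1S, where the log2 ratio was 0.02. The averaged differences were 0.19 for CD38 (FDR = 0.692), -0.16 for SDC1 (FDR = 0.588), -0.25 for TNFRSF17 (FDR = 0.454) and -0.33 for GPRC5D (FDR = 0.59) by edgeR's quasi-likelihood test. GPRC5D, with the passage as a block, was the 1 member called, at -0.34 (SE 0.07, FDR = 0.026), beside 2.37% of genes tested. That call was lost in the same fit without the mixed library (-0.31, FDR = 0.0666). Without this library and without the block, the averaged values were 0.13, -0.18, -0.32 and -0.37 for CD38, SDC1, TNFRSF17 and GPRC5D.

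Fer-1 + RSL3 against untreated cells gave 3 calls in MM1R, beside 9.22% of all genes tested, and 5 members without overlap (those 3, CD55 and GPRC5D), beside 30.6%. CD38 rose by 1.00 (SE 0.24, FDR = 0.0184), SDC1 fell by 0.66 (SE 0.15, FDR = 0.0132) and TNFRSF17 fell by 0.73 (SE 0.19, FDR = 0.0271). Without the mixed library, SDC1 was at -0.71 (FDR = 0.0337) and TNFRSF17 at -0.85 (FDR = 0.0347), and CD38 at 0.88 was no longer called (FDR = 0.0754). CD38 was also lost without MM1R Fer-1 + RSL3 replicate 1 or untreated replicate 1 or 3. SDC1 was lost without MM1R untreated replicate 3 (FDR = 0.0544), and TNFRSF17 without Fer-1 + RSL3 replicate 1 or 3 or untreated replicate 1 or 2 (highest FDR = 0.0938).

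In MM1S, TNFRSF17 was the 1 member called (-0.84, SE 0.19, FDR = 0.0195), beside 4.61% of all genes tested, and 3 members did not overlap (CD55, SDC1 and TNFRSF17), beside 28.3%. The TNFRSF17 call was lost without untreated replicate 2 or 3 or Fer-1 + RSL3 replicate 1 of MM1S (highest FDR = 0.0986). SDC1 at -0.54 just missed the threshold (FDR = 0.0531). CD55 was at 1.35 in MM1R (FDR = 0.247) and 0.89 in MM1S (FDR = 0.546), and without MM1S RSL3 replicate 1 the MM1R value passed at 1.34 (FDR = 0.0138). With the passage as a block, the same comparison called CD38, SDC1, TNFRSF17 and GPRC5D in both lines, beside 22.2% of genes tested in MM1R and 14.7% in MM1S, and the 4 calls in MM1R were also made without the mixed library. CD38 and CD55 were higher and SDC1, TNFRSF17 and GPRC5D lower than untreated in all 6 passages, as were 17.2% and 16% of genes tested. The blocked values of GPRC5D were -0.82 (FDR = 0.000201) and -0.70 (FDR = 0.000536), and those of CD38 0.98 (FDR = 0.000263) and 0.52 (FDR = 0.0108). This comparison shares its untreated libraries with that of RSL3 alone.

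**Figure D5:**
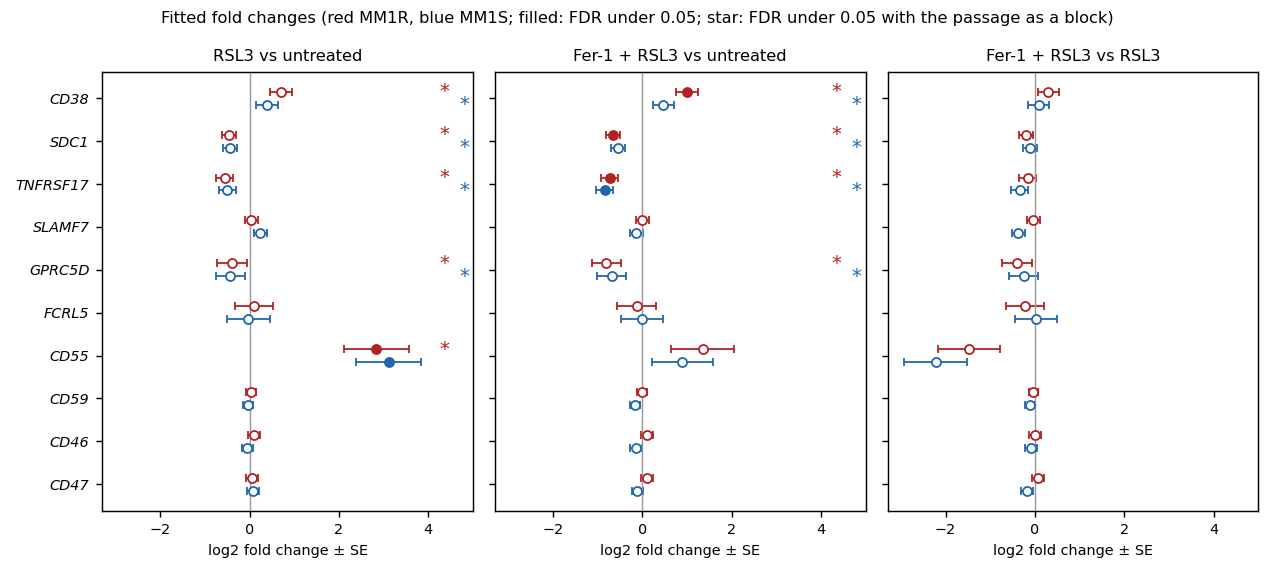
Fitted log2 fold changes ± SE of the 10 genes in MM1R and MM1S for RSL3 against untreated, Fer-1 + RSL3 against untreated, and Fer-1 + RSL3 against RSL3, with filled points for FDR under 0.05 and stars for FDR under 0.05 with the passage as a block. CD55 stands at 2.83 and 3.12 in the first comparison, where CD59, CD46 and CD47 lie between -0.05 and 0.10.

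The other 5 members were not called in any comparison between treatments. SLAMF7 (hg19 chr1:160708847-160724611) had 744 to 864 CPM in untreated MM1R, 735 to 869 with RSL3 and 679 to 928 with Fer-1 + RSL3. In MM1S it had 753 to 829 CPM untreated and 636 to 755 with Fer-1 + RSL3, and RSL3 replicate 1, with 1150 CPM, stood above the other RSL3 libraries at 793 and 829. It was the 1 member whose Fer-1 + RSL3 libraries all lay below its RSL3 libraries in MM1S, as 8.79% of genes tested did not overlap in either direction, and the difference of -0.38 (FDR = 0.801) was -0.19 without that library.

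CD59 (hg19 chr11:33724556-33758025) ranged over 478 to 684 CPM, CD46 (hg19 chr1:207925382-207968858) over 284 to 423 CPM and CD47 (hg19 chr3:107761938-107810709) over 131 to 249 CPM across all 18 libraries. The groups of different treatments overlapped in both lines for all 3 genes. With RSL3, CD59 differed from untreated cells by 0.03 in MM1R (interval -0.21 to 0.26) and by -0.04 in MM1S (-0.27 to 0.20). CD46 differed by 0.10 (-0.18 to 0.39) and -0.05 (-0.33 to 0.23), and CD47 by 0.05 (-0.24 to 0.34) and 0.08 (-0.21 to 0.36). The intervals lie within 0.39 of 0 in either direction for each of these genes, and of the 3 complement regulators CD55 was the one called. CD59 shares exons with another gene on its strand and CD46 overlaps exons of MIR29B2CHG on the opposite strand, and since the use of strand in counting is not known their reads may be split or mixed.

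The lines differed in some of these genes before treatment. CD38 was lower in untreated MM1R than in untreated MM1S (log2 difference -1.06, SE 0.24, FDR = 0.0112 by edgeR's quasi-likelihood test), and so was CD47 (-0.47, SE 0.13, FDR = 0.0329), with no overlap between the lines. They were the 2 members called, beside 10.5% of all genes tested, and for 3 other members (SDC1, CD55 and CD59) the libraries of the lines did not overlap, as for 32.4% of genes tested. The CD38 call was lost without MM1R untreated replicate 3 or MM1S untreated replicate 2 or 3, and the CD47 call without any 1 of the 6 untreated libraries (highest FDR = 0.0716 and 0.117). Passages are nested in lines, so that a difference between lines and one between passage numbers cannot be told apart.

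Under RSL3, CD47 was again lower in MM1R (-0.49, SE 0.13, FDR = 0.0268), the 1 member called beside 9.17% of all genes tested. The RSL3 libraries of the lines did not overlap for CD38, CD59 and CD47, as for 26% of genes tested. The CD47 call was lost without MM1R RSL3 replicate 1, 2 or 3 or MM1S RSL3 replicate 1 or 2 (highest FDR = 0.0896). CD38 was at -0.75 (FDR = 0.0619) and passed without MM1S RSL3 replicate 1 or MM1S untreated replicate 1 (lowest FDR = 0.0181). CD55 was at -1.05 (FDR = 0.371), and this value turned to 1.14 (FDR = 0.0535) without MM1S RSL3 replicate 1. No member was called for a difference between the lines in its response to RSL3, where 0% of all genes tested were called by edgeR's quasi-likelihood test and none of the 10 members had an unadjusted p under 0.05 (1.55% of all genes tested had), and DESeq2 called none of the 9 members for which it gave a p-value.

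Genes that work with these members were described from lists, in the comparison of RSL3 with untreated cells averaged over the lines, where 8.7% of genes tested rose and 6.81% fell. Of 30 tested surface antigens other than the members, 3 rose and 1 fell (median 0.08, against -0.000133 for all genes). CD48, a ligand of the SLAM family, fell by 0.40 (SE 0.07, FDR = 0.000922), from 465 ± 6.83 to 334 ± 24.2 CPM in MM1R and from 333 ± 21.9 to 267 ± 14.1 in MM1S. CXCR4, the receptor that homes plasma cells to marrow, rose by 1.89 (SE 0.39, FDR = 0.00393), or by 1.24 without MM1S RSL3 replicate 1. IL6ST, the signalling chain of the interleukin 6 receptor, was at 0.38 (FDR = 0.0441), a call kept only without MM1R untreated replicate 1, MM1R RSL3 replicate 2, MM1S RSL3 replicate 2 or MM1S Fer-1 + RSL3 replicate 1 or 2 and lost in the other 13 of 18 fits (highest FDR = 0.104).

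Of 11 genes for BCMA ligands and shedding enzymes, 2 rose and 1 fell (median 0.04). ADAM17, a sheddase of many surface proteins, rose by 0.57 (SE 0.13, FDR = 0.00932). HPSE, the heparanase that trims the chains of syndecan-1, was at -0.42 (FDR = 0.0495), and this call was lost in 13 of 18 fits that left out 1 library, all but those without an MM1R Fer-1 + RSL3 library or without MM1S untreated or Fer-1 + RSL3 replicate 1 (highest FDR = 0.129). Among 20 genes for other syndecans and heparan sulfate synthesis, 3 rose and 4 fell (median -0.11). NDST1, which starts the sulfation of the chains, fell by 0.68 (SE 0.09, FDR = 0.000237), XYLT2, which starts the chains on the core protein, fell by 0.62 (SE 0.09, FDR = 0.000307), and both fell in each line. EXT1, a polymerase of the chains, rose by 1.63 (SE 0.30, FDR = 0.00177).

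Of 4 tested regulators of complement besides the members, 2 rose and none fell (median 0.50). CLU (clusterin), a soluble inhibitor of the terminal complex, rose by 0.78 (SE 0.16, FDR = 0.00355), a call kept without any 1 library. C4BPB, a chain of the C4b-binding protein, was at 1.07 (SE 0.32, FDR = 0.0351) with few counts, at 0.10 to 1.57 CPM in the untreated and RSL3 libraries. Its call was lost without MM1R or MM1S untreated replicate 1 or 3, any 1 MM1R RSL3 library or MM1S RSL3 replicate 1 (0.70, FDR = 0.136). No complement component was called, of 4 tested (median -0.05). Of 27 tested genes for synthesis and remodelling of the GPI anchor, PIGA, which acts in the first step, rose by 0.73 (SE 0.19, FDR = 0.0152), or by 0.45 without MM1S RSL3 replicate 1, and the list had a median of 0.08. PIGA had 21.0 and 21.9 CPM in the other MM1S RSL3 libraries and 53.3 in that one. PIGS was at -0.19 (FDR = 0.0401), and its call was lost without MM1R untreated replicate 2, MM1R RSL3 replicate 1 or 3, any 1 untreated MM1S library, MM1S RSL3 replicate 1 or MM1S Fer-1 + RSL3 replicate 3 (highest FDR = 0.099). Of 12 tested genes of the CD47 and phagocytosis axis, THBS1, a secreted ligand of CD47, was the 1 called (2.48, SE 0.55, FDR = 0.00675) and was low throughout, at most 7.16 CPM, with a list median of 0.15.

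Of 9 tested genes for enzymes of NAD and adenosine beside CD38, 2 rose and none fell (median -0.02). NAMPT, the rate-limiting enzyme of NAD salvage, rose by 1.57 (SE 0.30, FDR = 0.00229) and the ectonucleotidase ENPP1 by 0.66 (SE 0.12, FDR = 0.00144). Of 12 tested ligands of natural killer and T cells, 4 rose and 1 fell (median 0.12), among them CLEC2B (1.33, FDR = 0.00603) and ULBP3 (1.34, FDR = 0.0062), both under 10 CPM, and PVR, which fell by 0.34 (FDR = 0.007). CXCR4, NAMPT, EXT1, THBS1, ADAM17, PIGA and CLU had their highest level in MM1S RSL3 replicate 1, as CD55 did, and were called without that library too. CXCR4 had 120 ± 124 CPM in MM1S with RSL3, NAMPT 724 ± 638 and EXT1 36.4 ± 27.8.

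The members were compared with all genes tested for likeness of pattern, as Pearson's r of log2 CPM over the 18 libraries after each line's mean was taken out. These values are descriptions, since libraries of a group and a passage are not independent. GALNT3 was near to CD55 (0.983). The nearest to CD38 were DNAJC6 (0.921) and FGD6 (0.918), and those to SDC1 were UBE2Q1 (0.984) and HYAL2 (0.972). TNFRSF17 was most like SH2B2 (0.947) and UAP1 (0.935), and GPRC5D most like GFI1 (0.958) and SREBF1 (0.956). Those of the other members were weaker, AGO2 (0.873) and DGKE (0.865) for SLAMF7, CNTN1 (0.832) and ATP6V1D (0.815) for CD59, ATP8A1 (0.866) and EML4 (0.865) for CD46, and ADAM28 (0.880) and MME (0.871) for CD47. For FCRL5, with its few counts, r was 0.883 for LOC102725254 and 0.878 for STAT3, and little can be read from it. Among the members, TNFRSF17 and GPRC5D had r = 0.895, SDC1 and TNFRSF17 0.830, CD46 and CD47 0.771, and SDC1 and CD55 -0.715.

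The members called with RSL3, in the average over the lines or with the passage as a block, are CD55, CD38, SDC1, TNFRSF17 and GPRC5D. GPRC5D was called with the block but not in the average without it. The averaged fit called 30.4% of genes tested with the block and 15.5% without it. Promoters of these genes are shown because the genes were called with the same treatment. The sequences are the 250 bases before the RefSeq start site on the gene's strand in GRCh38.p14, with matches to the motifs searched in capitals. RefSeq sequences were matched for 8 of 10 members, not for TNFRSF17 and SLAMF7.
CD55, chr1:207321428-207321677: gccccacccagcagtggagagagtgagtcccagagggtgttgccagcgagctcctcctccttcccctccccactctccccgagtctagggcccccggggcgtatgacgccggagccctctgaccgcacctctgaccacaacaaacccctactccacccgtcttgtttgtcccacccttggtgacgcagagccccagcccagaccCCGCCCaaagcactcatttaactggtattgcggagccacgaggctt
CD38, chr4:15778078-15778327: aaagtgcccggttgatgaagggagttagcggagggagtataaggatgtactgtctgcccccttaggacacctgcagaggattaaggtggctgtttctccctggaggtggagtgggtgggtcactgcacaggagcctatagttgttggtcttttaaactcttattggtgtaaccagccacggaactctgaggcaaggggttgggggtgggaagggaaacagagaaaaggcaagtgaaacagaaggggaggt
SDC1, chr2:20225476-20225725: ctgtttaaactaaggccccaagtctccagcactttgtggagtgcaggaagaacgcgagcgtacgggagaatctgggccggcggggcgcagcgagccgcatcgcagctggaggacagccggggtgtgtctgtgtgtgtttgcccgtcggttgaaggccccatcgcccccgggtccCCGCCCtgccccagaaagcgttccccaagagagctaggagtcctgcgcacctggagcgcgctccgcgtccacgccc
GPRC5D, chr12:12952171-12952420: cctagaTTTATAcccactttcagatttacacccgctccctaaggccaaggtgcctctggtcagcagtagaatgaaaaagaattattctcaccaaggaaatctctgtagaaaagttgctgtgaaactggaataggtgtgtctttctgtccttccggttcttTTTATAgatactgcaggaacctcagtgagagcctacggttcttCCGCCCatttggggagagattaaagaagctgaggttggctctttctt

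The motifs searched on both strands were a heat shock element (GAANNTTC), a cyclic AMP response element (TGACGTCA), an AP-1 site (TGANTCA), an antioxidant response element (TGACNNNGC), an ATF4 composite element (TGATGNAA), a GC box (GGGCGG), an E-box (CACGTG) and a TATA box (TATAAA). CD55, SDC1 and GPRC5D each held 1 GC box on the reverse strand, at positions -46, -76 and -47 from the start site, where the position is that of the first base of the match, and this motif was found in 42.6% of 35116 promoters of this length. GPRC5D held 2 reverse-strand TATA boxes, at -244 and -90, and 10.7% of all promoters held 1 or more. CD38 held none of the motifs. Of the members not called with RSL3, CD59 held the 1 heat shock element (5.78% of promoters). CD47 held the 1 antioxidant response element (10.9%) and 6 GC boxes, CD46 2 GC boxes, and FCRL5 no motif. The share of G and C was 64% in CD55, 66.4% in SDC1, 52.4% in CD38 and 44.4% in GPRC5D.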

How the data were processed

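Total RNA of 18 libraries was sequenced on a BGISEQ-500 in pairs of 50 bp reads. Per the submitters' processing notes, reads were checked with FastQC 0.11.5 and aligned to hg19 with STAR 2.7.3a. The counting tool, the annotation and the use of strand are not given in the sources used here. The authors deposited raw read counts for 43735 genes, which were used here, and a table of 29553 genes in which each value is a normalized signal, the count divided by a size factor of the library (0.834 to 1.08), which served as an alternative scaling. Per the labels, every column was tied to 1 sample.

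Groups were compared with edgeR 4.0.16 (R 4.3.3), by its quasi-likelihood test with Benjamini-Hochberg adjustment over all genes tested, in 1 model of 6 group means on all 18 libraries (12 residual degrees of freedom), after filterByExpr with a minimum count of 10, which kept 14281 genes and 99.9% of counts. TMM factors were 0.864 to 1.06. Intervals cover 95%. Library pairs of 1 group differed by more than sampling noise (chi-square per degree of freedom 7.66 to 159). Steps were tested on simulated data. DESeq2 1.42.0, RLE scaling, the authors' size factors, other filters, only the groups compared, a fold criterion and leaving out each library were alternatives, and 2 fits, without MM1S passage 16 and with the block but not the mixed library, were added once values were known, as was leaving out each library for the list genes.

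The replicate numbers stand for passages, which pair the libraries within a line. Deviations from group means correlated at a median r of 0.25 within passages of MM1R (0.0338 to 0.516, 9 pairs) and 0.416 in MM1S (0.216 to 0.681, 9 pairs), against -0.102 and -0.33 between passages. The fit with the passage as a block has 8 residual degrees of freedom.

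The 10 members and the lists (other surface antigens, BCMA ligands and shedding enzymes, other complement regulators, complement components, CD47 and phagocytosis axis, GPI anchor, syndecans and heparan sulfate, NAD and adenosine enzymes, natural killer and T cell ligands, and markers of plasma, B, T and natural killer cells, monocytes and stroma) were chosen with earlier results of these data known. All members are named, with at most 3 called genes of a list per comparison and the 2 genes most like each member (log2 CPM, prior count 2). A few genes that this rule or the lists would name are not reported here. Gene positions are from GENCODE annotation of hg19, joined by symbol.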

Additional observations from a re-analysis of the deposited data

How the results depend on the processing

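The counts of members called moved with several settings. With the passage as a replicate block they were 5 in MM1R and 4 in MM1S for RSL3 against untreated, 1 for Fer-1 + RSL3 against RSL3 averaged, and 4 in MM1S for Fer-1 + RSL3 against untreated, and the same block without the mixed library gave 5, 4, 0 and 4 in the same order. The block changed no other count by over 1.5 times. The share of all genes tested that was called rose with the block too. It went from 3.36% to 13.1% in MM1R and from 3.67% to 13.3% in MM1S for RSL3 against untreated. For Fer-1 + RSL3 it went from 0.119% to 2.37% against RSL3 averaged and from 4.61% to 14.7% against untreated in MM1S. For all other settings, and without single libraries, this share is not given, so those counts do not set the members apart from other genes. No paired analysis was possible because passages are nested in lines for the comparisons between lines. Without the filter on low counts there were 3 and 2 calls for RSL3 against untreated, 1 in each of the 3 comparisons of Fer-1 + RSL3 with RSL3, 5 and 4 for Fer-1 + RSL3 against untreated, and 4 between the lines both untreated and under RSL3. With only the groups compared the counts were 2 and 0 for RSL3 against untreated, 5 and 2 for Fer-1 + RSL3 against untreated, and 0 between the lines under RSL3. DESeq2 gave 0 and 0 for RSL3 against untreated, with no p-value for CD55, 2 for Fer-1 + RSL3 against untreated in MM1S and 2 between the lines under RSL3. A fold criterion left 1 call averaged with RSL3, 0 and 0 for Fer-1 + RSL3 against untreated, 1 between untreated lines and 0 under RSL3. A minimum count of 50 gave 2 calls for Fer-1 + RSL3 against untreated in MM1S. Without MM1S passage 16 the counts were 3 and 0 for RSL3 against untreated, 5 and 0 for Fer-1 + RSL3 against untreated, and 2 between the lines under RSL3.

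Leaving out 1 library gave 0 to 2 calls for RSL3 against untreated in MM1R, 0 to 1 in MM1S and 3 to 4 averaged. It gave 0 to 1 for Fer-1 + RSL3 against RSL3 averaged, 1 to 4 and 0 to 2 for Fer-1 + RSL3 against untreated in MM1R and MM1S, and 0 to 2 between the lines, untreated and under RSL3. The CD55 difference between the lines under RSL3, -1.05 with all libraries, ranged from -1.54 (without MM1S RSL3 replicate 3) to 1.14 (without MM1S RSL3 replicate 1), and also to 1.14 without MM1S passage 16. These fits take the spread from all groups, as the fit with all libraries does, also where 2 libraries are left in a group. The cause of these shifts was not tested. With 3 passages per group, changes the size of those of SDC1 or CD38 pass or miss the threshold with the setting.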
